A study of Mus musculus with 6 samples.

Results

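The genes described here are the tumour suppressor gene Trp53, which encodes p53, its regulators and direct targets, and genes of the BCL2 family and the caspase cascade that carry out apoptosis. They were taken by symbol from a fixed list of 37 genes, all of which were found among the 15398 genes of the deposited gene table. Transcripts were measured by RNA sequencing in 2 groups of 3 libraries each, both from mouse bEND.3 cells, a line derived from brain endothelium. One group stably expresses circSlc17a5, a circular RNA whose name refers to Slc17a5, and the other stably carries the matching empty vector as negative control. The labels give no age, treatment time or promoter, and do not say whether each stable line was a clone or a pool or whether replicates were separate cultures, so the p-values speak for the spread among these libraries alone, which may be technical. The series title links circSlc17a5 to vessel growth in the eye, and the comparison shows which mRNAs differ between cells with and without the added circular RNA.

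The p53 protein is a transcription factor that is kept low by the ubiquitin ligase MDM2 and its partner MDM4, and that is released from them when DNA is damaged or cells are stressed. It switches on genes that halt division, repair DNA, alter metabolism or start apoptosis, and MDM2 itself is one of its targets, which closes a feedback loop. In the mitochondrial route of apoptosis, BH3-only proteins block the antiapoptotic members of the BCL2 family or activate BAX and BAK, which then open the outer mitochondrial membrane and let cytochrome c assemble APAF1 and caspase-9. The p53 protein is controlled largely after translation, so its mRNA level is not a measure of its activity.

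Of the 37 genes, 36 had enough counts to be tested and 9 changed, with 6 risen and 3 fallen (edgeR quasi-likelihood test, adjusted p under 0.05 over all 11722 tested genes). Pmaip1, Ephx1, Plk2, Gdf15, Polk and Apaf1 rose in circSlc17a5 cells, and Sfn, Bax and Ppm1d fell. Trp53, Mdm2, Mdm4 and the genes of the antiapoptotic proteins did not pass the test. The share called among the members was 25% against 22% of all tested genes (11.8% risen and 10.2% fallen), so the list as a whole was close to the background. Its median log2 fold change, circSlc17a5 over control, was 0.04 against -0.002 over all tested genes. The groups did not overlap for 17 of the 36 members, and for 42.6% of all tested genes. The authors' deposited table had q under 0.05 for 5 risen and 3 fallen of the 37 members, against 15% of the 15383 genes with a q there. All 8 of these members were called here as well, and Gdf15 had an authors' q of 0.0722.

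**Figure D1:**
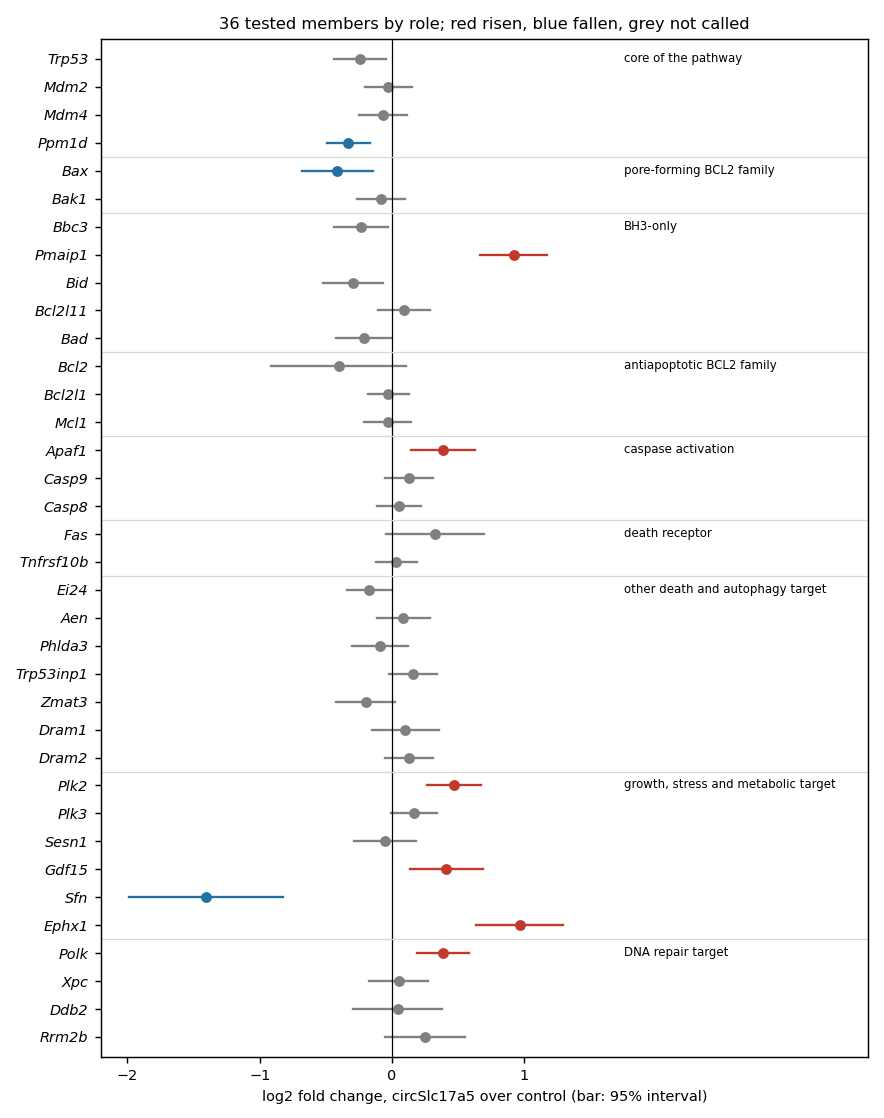
Log2 fold change of circSlc17a5 over control for the 36 tested members, one row per gene, grouped by role, with bars for the 95% interval, red for the 6 risen, blue for the 3 fallen and grey for the 27 not called. Ephx1 (0.96) and Pmaip1 (0.92) lie farthest to the right and Sfn (-1.41) farthest to the left.

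Library totals lay between 16848513 and 17600230 counts. On the first principal component of all tested genes the circSlc17a5 libraries lay between -26.4 and -15.6, and control replicate 1, at 5.49, was nearer to them than control replicates 2 and 3, at 34 and 21.5. Over the 36 tested members, the median absolute log2 difference between control replicates 1 and 2 was 0.186, and it was 0.0796 between circSlc17a5 replicates 2 and 3, the closest pair. Without control replicate 1, 39.7% of all genes and 15 members were called (8 risen and 7 fallen), and without circSlc17a5 replicate 1, 3.9% of all genes and 3 members. The markers went against the endothelial origin of the line. Of 12 endothelial markers 10 were in the table and 9 of those averaged under 1 TPM (transcripts scaled to a fixed total per library), among them Pecam1, Cdh5 and Kdr. Their summed level was 14.6 to 15.9 TPM in circSlc17a5 and 11.7 to 13.5 TPM in control libraries, nearly all of it Egfl7. Epithelial markers (7 of 8 in the table, 4 under 1 TPM), mainly the keratin genes Krt8, Krt18 and Krt19, summed to 1600 to 1650 TPM in circSlc17a5 and 1550 to 1920 TPM in control libraries. Markers of mural cells, smooth muscle and fibroblasts (12 of 12 in the table, 6 under 1 TPM) summed to 16.9 to 32.7 TPM in circSlc17a5 and 19.8 to 43.5 TPM in control libraries. Among them the collagen gene Col1a2 followed single libraries, with 7, 257 and 77 counts with circSlc17a5 and 508, 3 and 0 in control. Leukocyte markers (5 of 6 in the table, 3 under 1 TPM), nearly all Cd68, summed to 351 to 400 TPM in circSlc17a5 and 264 to 314 TPM in control libraries, while the defining leukocyte gene Ptprc had 0 counts in 5 of the 6 libraries. The part of other cell types in the results below was not tested, and in bulk libraries fewer cells of a type and less RNA per cell cannot be told apart.

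**Figure D2:**
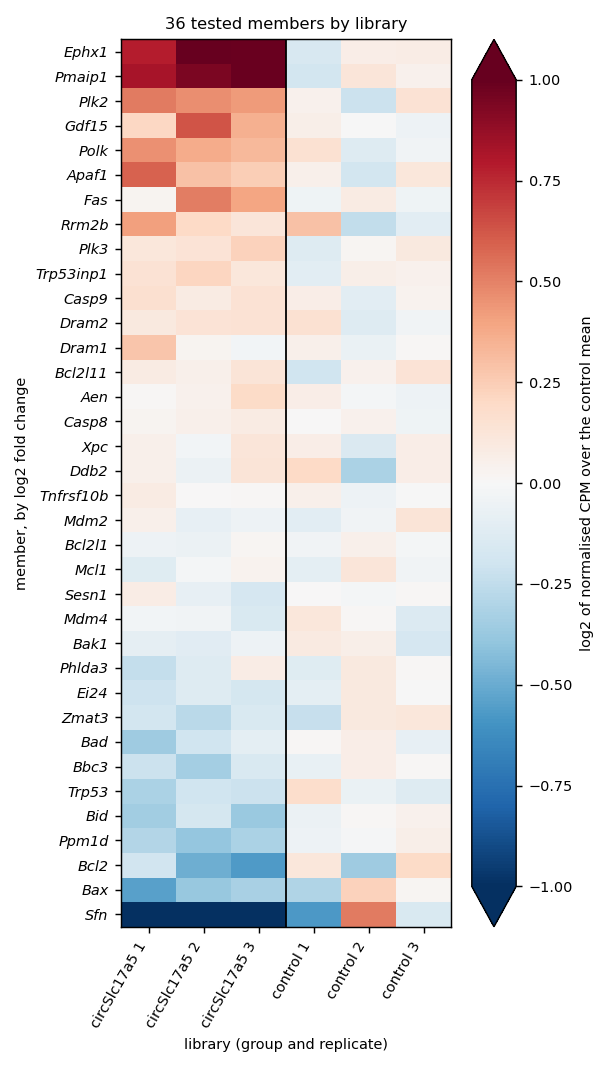
Log2 of the normalised CPM (counts scaled to a fixed library size) of each tested member over its control mean, with libraries in columns and members in rows ordered by log2 fold change and colours ending at -1 and 1. The 3 circSlc17a5 libraries are red for Ephx1 and Pmaip1 and blue for Sfn, and control replicate 1 is the bluest control library for Sfn and Bax.

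Among p53 and its regulators, the phosphatase gene fell and the other members did not pass the test (1 of 4 called, against 22% of all tested genes). Trp53 had 2300, 2431 and 2351 counts in the circSlc17a5 libraries, against 3081, 2529 and 2480 in the control libraries. All circSlc17a5 libraries lay below all control libraries after normalisation, and control replicate 1 was the highest. The log2 fold change of Trp53 was -0.24 (SE 0.089, adjusted p = 0.0722), and it was -0.15 without control replicate 1. Ppm1d encodes WIP1, a phosphatase that is induced by p53 and turns the damage response off. Its counts were 875, 801 and 825 with circSlc17a5, against 987, 986 and 1065 in control. It averaged 47.7 ± 1.56 normalised CPM in circSlc17a5 cells and 60.1 ± 2.44 in control cells (SD, n = 3 each), and was 1.26-fold lower (edgeR adjusted p = 0.0157). The groups did not overlap. The call ended without circSlc17a5 replicate 1, 2 or 3 or without control replicate 3 (highest edgeR adjusted p = 0.0703), while the log2 fold change stayed between -0.36 and -0.24 over all alternatives.

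Mdm2, the ubiquitin ligase gene and a classical p53 target, had 1716, 1525 and 1527 counts with circSlc17a5, against 1470, 1494 and 1725 in control. The groups overlapped, and the log2 fold change was -0.03 with a 95% interval from -0.21 to 0.15. Mdm4, whose product binds the activation domain of p53, had 1181, 1142 and 1030 counts with circSlc17a5 and 1237, 1120 and 1036 in control, again overlapping, with a log2 fold change of -0.07 (95% interval -0.25 to 0.12). In a fit that corrects for GC content and length of the transcripts, Mdm4 was called lower (-0.29, edgeR adjusted p = 0.0188). Within a library, the TPM of Mdm2 was between 3.24 and 3.59 times that of Mdm4 with circSlc17a5, and between 2.88 and 4.02 times in control.

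The promoters of 5 members are shown because they belong to the 2 regulators at the centre of the feedback loop, Trp53 and Mdm2, and to 3 members that changed, Ppm1d, Bax and Polk, and because each holds the 10-base p53 half-site consensus (in capitals), the unit that p53 binds in pairs. Sequences are RefSeq's (GRCm38.p6) and give the 250 bases before a listed start, 5′ to 3′ on the gene's strand. For Polk the start is the inner of 2 listed ones, and the outer one held no half-site.
Trp53 (chr11:69580109-69580358, plus strand): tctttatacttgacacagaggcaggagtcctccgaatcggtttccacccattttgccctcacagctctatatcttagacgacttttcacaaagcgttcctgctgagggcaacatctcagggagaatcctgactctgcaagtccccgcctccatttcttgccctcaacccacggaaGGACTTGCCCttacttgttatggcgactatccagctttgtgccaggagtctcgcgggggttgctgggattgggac
Mdm2 (chr10:117710759-117711008, minus strand): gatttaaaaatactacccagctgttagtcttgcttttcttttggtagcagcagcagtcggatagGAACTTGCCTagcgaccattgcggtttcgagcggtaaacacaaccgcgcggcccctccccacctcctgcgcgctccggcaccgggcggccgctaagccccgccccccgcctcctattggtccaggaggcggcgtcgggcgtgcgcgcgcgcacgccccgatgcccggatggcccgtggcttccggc
Ppm1d (chr11:85311004-85311253, plus strand): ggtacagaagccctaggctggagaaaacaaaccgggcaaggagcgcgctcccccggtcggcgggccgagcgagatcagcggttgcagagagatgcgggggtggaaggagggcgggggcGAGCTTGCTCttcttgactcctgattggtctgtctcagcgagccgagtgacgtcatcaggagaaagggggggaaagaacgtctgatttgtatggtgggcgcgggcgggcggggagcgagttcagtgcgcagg
Bax (chr7:45466899-45467148, minus strand): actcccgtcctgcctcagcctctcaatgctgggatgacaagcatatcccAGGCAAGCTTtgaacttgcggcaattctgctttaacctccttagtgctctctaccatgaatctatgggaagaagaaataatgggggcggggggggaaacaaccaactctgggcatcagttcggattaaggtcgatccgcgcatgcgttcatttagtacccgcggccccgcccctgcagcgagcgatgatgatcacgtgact
Polk (chr13:96519188-96519437, minus strand): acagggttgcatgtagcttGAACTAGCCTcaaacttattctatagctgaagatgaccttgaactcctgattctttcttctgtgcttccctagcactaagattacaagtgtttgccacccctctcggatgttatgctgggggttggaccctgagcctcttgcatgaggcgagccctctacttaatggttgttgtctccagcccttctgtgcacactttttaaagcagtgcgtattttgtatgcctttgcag
The first base of the half-site lay at -75 in Trp53, -186 in Mdm2, -132 in Ppm1d, -201 in Bax and -231 in Polk, counted back from the start. The consensus reads the same on both strands, so a single search covers both, and it was searched with no mismatch from 250 bases before to 50 bases after the start. RefSeq promoters were found for 29 of the 37 members, and 8 of these genes (27.6%) held a half-site, the others being Sesn1, Aen and Ei24. Of all 27025 genes with a promoter, 9.6% held one. Since many of the members were listed as p53 targets, the share among members describes the list, and a match is no evidence of binding. Of the other members that changed, Ephx1, Plk2, Gdf15, Apaf1 and Sfn held no half-site, and Pmaip1 had no promoter to search. No member promoter held more than 1 half-site, and genes without one may hold it outside this window.

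In the BCL2 family, 1 of 2 pore-forming genes fell, 1 of 5 BH3-only genes rose and 0 of 3 antiapoptotic genes changed. Of all tested genes 22% were called, so these few calls are not read as a result about the family. Pmaip1 encodes NOXA, a BH3-only protein that neutralises MCL1 and is a direct p53 target. It had 257, 272 and 275 counts in circSlc17a5 libraries, against 122, 146 and 142 in control libraries, so every circSlc17a5 library was far above every control library. It averaged 15.4 ± 0.90 normalised CPM with circSlc17a5 and 8.12 ± 0.86 in control (SD, n = 3 each). Pmaip1 was 1.89-fold higher (log2 fold change 0.92, SE 0.115, edgeR adjusted p = 0.00136), and it was called in all 16 alternatives, with log2 fold changes between 0.82 and 0.98. Bax, the pore-forming protein's gene, had 894, 975 and 995 counts with circSlc17a5, against 1011, 1415 and 1254 in control. The control libraries were uneven, with replicate 1 close to the circSlc17a5 libraries. Bax averaged 54.7 ± 4.29 normalised CPM with circSlc17a5 and 72.9 ± 13.2 in control (SD, n = 3 each), and was 1.33-fold lower (log2 fold change -0.41, SE 0.122, edgeR adjusted p = 0.0378). Its log2 fold change was -0.54 without control replicate 1 and -0.12 with the GC and length correction, where the call ended (edgeR adjusted p = 0.169). Bax is a short, GC-rich transcript, at 1100 bases and 63.6% GC. The call also ended on FPKM values and when any library other than control replicate 1 was left out (highest edgeR adjusted p = 0.147).

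**Figure D3:**
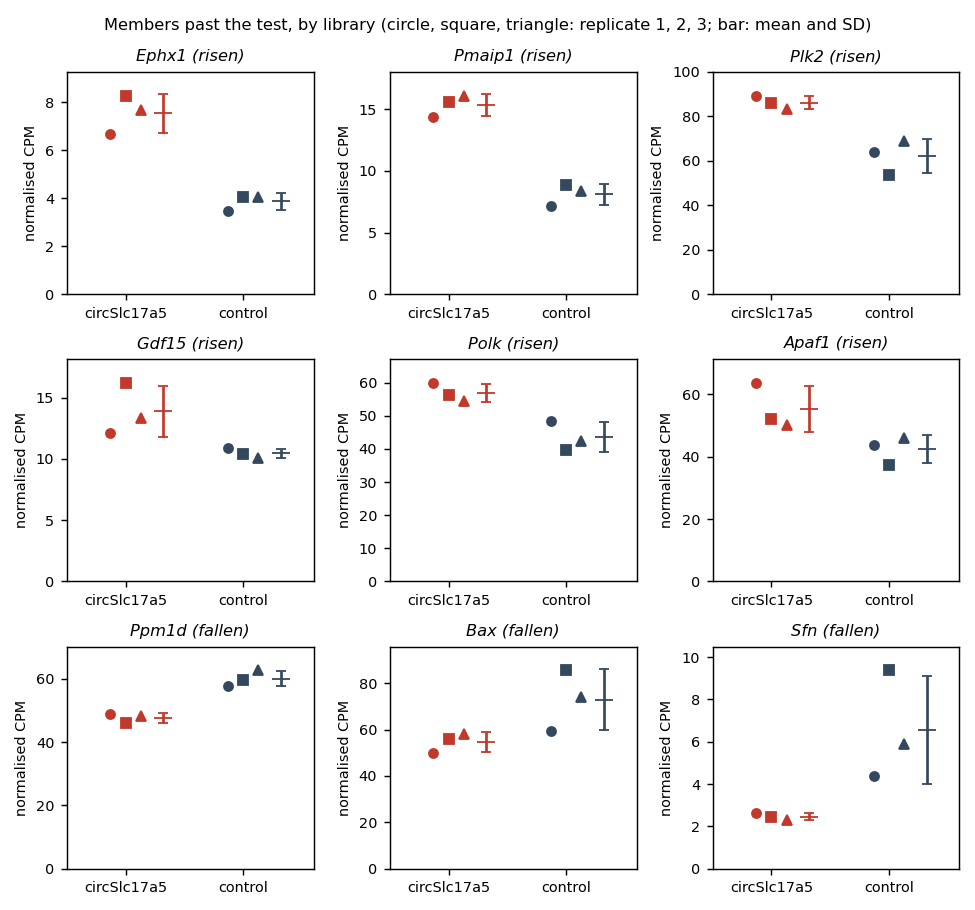
Normalised CPM of the 9 members past the test, with the circSlc17a5 libraries on the left and the control libraries on the right of each panel, symbols for replicates, and the mean with its SD beside them, all axes starting at 0. The groups do not overlap in any panel, the fold change of the risen genes is largest for Ephx1 (1.95) and Pmaip1 (1.89), and Bax and Sfn show uneven control libraries.

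Bak1, the other pore-forming member, had 1776, 1698 and 1742 counts with circSlc17a5, against 1918, 1822 and 1594 in control, with overlapping groups and a log2 fold change of -0.08 (95% interval -0.26 to 0.10). In TPM, which allows genes to be compared per length, Bax was 1.46, 1.67 and 1.65 times Bak1 in the circSlc17a5 libraries, against 1.54, 2.24 and 2.28 times in the control libraries. The 2 higher control ratios came from replicates 2 and 3, and the groups overlapped through control replicate 1. Bbc3, which encodes PUMA, the BH3-only protein through which p53 kills many cell types, had 316, 282 and 315 counts with circSlc17a5, against 331, 355 and 350 in control. All circSlc17a5 libraries were lower, but the gene did not pass the test (log2 fold change -0.23, SE 0.093, adjusted p = 0.0891). With the GC and length correction its log2 fold change was 0.01. Pmaip1 reached between 0.543 and 0.663 of the TPM of Bbc3 with circSlc17a5, against 0.250 to 0.275 in control, without overlap.

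The other BH3-only genes did not pass the test. Bid, whose product is cut by caspase-8 and links death receptors to mitochondria, had a log2 fold change of -0.30 (adjusted p = 0.0600) and groups that did not overlap. Bad, which binds BCL-XL when it is not phosphorylated, had one of -0.22 (adjusted p = 0.113), also without overlap. Bcl2l11, which encodes BIM, had one of 0.09 (adjusted p = 0.477), and its groups overlapped. At the level of transcripts, the main Bcl2l11 transcript NM_207680.2 had 1056, 846 and 909 counts with circSlc17a5, against 595, 391 and 644 in control, while NM_207681.2 had 156, 337 and 301, against 345, 460 and 530. The 2 transcripts pointed in opposite directions without overlap, at log2 fold changes of 0.73 and -0.80, and neither passed the test (edgeR adjusted p = 0.225 and 0.367).

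None of the antiapoptotic genes passed the test. Of 3 tested, 0 changed with edgeR, DESeq2 or limma-voom, against 22% of all tested genes with edgeR. Unadjusted edgeR p-values under 0.05 numbered 0, against 4583 among all 11722 tested genes. Mcl1, whose short-lived product holds BAK and BIM in check, had 4341, 4524 and 4626 counts with circSlc17a5 and 4214, 4738 and 4377 in control. Its log2 fold change was -0.03 with a 95% interval from -0.21 to 0.14. Bcl2l1, the gene of BCL-XL, had 1132, 1100 and 1136 counts with circSlc17a5 and 1094, 1123 and 1100 in control with overlapping groups and a log2 fold change of -0.03 (95% interval -0.18 to 0.12). Bcl2, the founding member, was nearly silent, with 34, 27 and 25 counts with circSlc17a5 and 40, 28 and 42 in control. Its log2 fold change was -0.40, with a 95% interval from -0.92 to 0.11. Mcl1 made up between 72.7% and 74.4% of the summed TPM of the 3 antiapoptotic genes with circSlc17a5 and between 72.7% and 74.7% in control.

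Ranked by mean TPM over the 6 libraries, these 10 genes ran from Bax at 101 through Mcl1 at 77.5, Bak1 at 56.7, Bad at 37.2, Bcl2l1 at 27.5, Bcl2l11 at 15.7, Bbc3 at 11.3 and Bid at 7.55 to Pmaip1 at 4.80 and Bcl2 at 0.270. Every library had this order except circSlc17a5 replicate 3, where Pmaip1 (6.63 TPM) stood just above Bid (6.60 TPM). Pmaip1 averaged 6.57 ± 0.17 TPM with circSlc17a5 and 3.04 ± 0.22 TPM in control (SD, n = 3 each), and Bid 7.27 ± 0.58 TPM with circSlc17a5 and 7.84 ± 0.31 TPM in control. The summed TPM of the 7 pore-forming and BH3-only genes was 2.07, 2.10 and 2.08 times that of the 3 antiapoptotic genes with circSlc17a5, against 2.31, 2.45 and 2.38 times in control. The groups did not overlap, and the sums are a description of mRNA with no test. The pore-forming sum averaged 152.3 TPM with circSlc17a5 and 163.1 TPM in control, with overlapping groups. The BH3-only sum averaged 78.9 and 74.1 TPM, and the antiapoptotic sum 110.9 and 99.6 TPM. Bax, the most abundant of these genes, averaged 93.5 TPM with circSlc17a5 and 108.6 TPM in control, and so weighed most in the ratios. It was called lower in 7 of the 16 alternatives, and its log2 fold change was -0.12 with the GC and length correction. The ratios therefore do not show a change shared by the family. A TPM value of one gene is not tested between groups here, since the median gene was higher with circSlc17a5 by 0.175 on the log2 scale in TPM and by 0.0633 in FPKM, against -0.003 in normalised CPM.

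**Figure D4:**
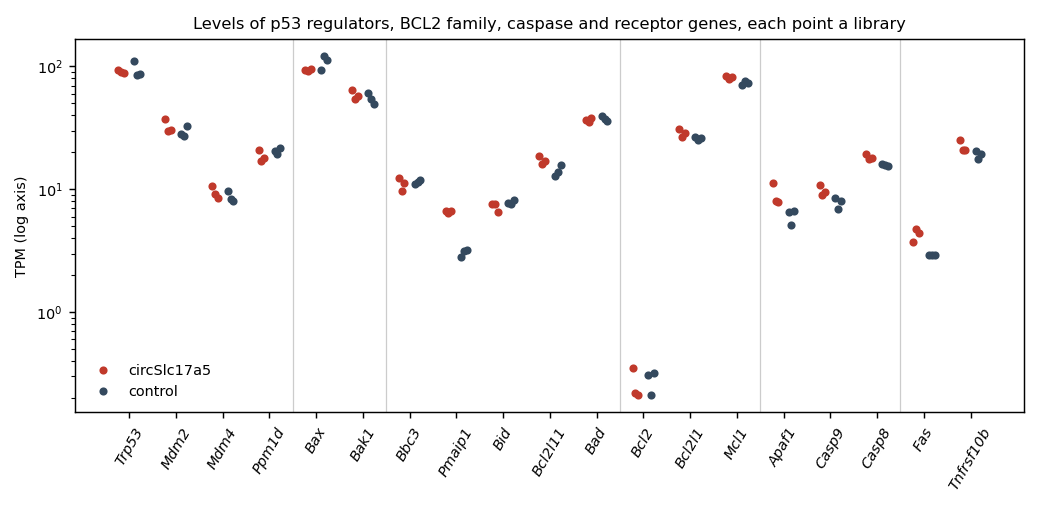
TPM on a log axis for the core p53 genes, the BCL2 family, caspase genes and death receptor genes, one point per library, with circSlc17a5 in red left of control in dark blue. Bax, Trp53 and Mcl1 are the most abundant, Bcl2 lies below 1 TPM in every library, and Pmaip1 shows the widest gap between the groups.

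Downstream of the mitochondria, the scaffold gene rose and the caspase genes did not pass the test (1 of 3 called, against 22% of all tested genes). Apaf1, whose product forms the apoptosome, had 1138, 906 and 859 counts with circSlc17a5, against 747, 618 and 779 in control. It was 1.31-fold higher (log2 fold change 0.38, SE 0.110, edgeR adjusted p = 0.0348), with circSlc17a5 replicate 1 the highest and no overlap. The call ended without circSlc17a5 replicate 1 or 2 or control replicate 2 or 3 (highest edgeR adjusted p = 0.140), and with the GC and length correction its log2 fold change was 0.18 (edgeR adjusted p = 0.124). The transcript is long, at 6577 bases, and the gene overlaps the listed span of Ikbip. Casp9, the initiator caspase that APAF1 activates, had 632, 583 and 597 counts with circSlc17a5, against 565, 485 and 550 in control. Its log2 fold change was 0.13 (95% interval -0.05 to 0.31), with no overlap between the groups. Casp8, the initiator caspase of death receptors, had 709, 704 and 703 counts with circSlc17a5 and 664, 663 and 640 in control, and after normalisation the groups overlapped (log2 fold change 0.05, 95% interval -0.11 to 0.22). Fas, the gene of the CD95 death receptor, was low, at 74, 101 and 91 counts with circSlc17a5 and 67, 71 and 67 in control, with a log2 fold change of 0.33 (adjusted p = 0.171). Tnfrsf10b, the mouse TRAIL receptor gene, had overlapping groups and a log2 fold change of 0.03 (95% interval -0.12 to 0.19).

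Of the 6 targets that act on growth, stress and metabolism, 3 rose and 1 fell (66.7% called, against 22% of all tested genes), which is a description of a small group with no test. Ephx1, which encodes microsomal epoxide hydrolase, a detoxifying enzyme, had 119, 144 and 131 counts with circSlc17a5, against 59, 67 and 69 in control, so that every circSlc17a5 library was well above every control library. It was 1.95-fold higher (log2 fold change 0.96, SE 0.147, edgeR adjusted p = 0.00398) and was called in all 16 alternatives. Plk2, a polo-like kinase gene that p53 induces, had 1598, 1497 and 1424 counts with circSlc17a5, against 1094, 889 and 1168 in control. It was 1.39-fold higher (log2 fold change 0.47, SE 0.093, edgeR adjusted p = 0.0105), a call that ended without circSlc17a5 replicate 1 (edgeR adjusted p = 0.0549). Gdf15, a secreted stress cytokine gene, had 216, 282 and 228 counts with circSlc17a5, against 185, 172 and 171 in control. Its 1.33-fold rise (log2 fold change 0.41, SE 0.125, edgeR adjusted p = 0.0416) was highest in circSlc17a5 replicate 2, and the call ended without any one library other than control replicate 1 (highest edgeR adjusted p = 0.161). With the GC and length correction it was 0.61 (edgeR adjusted p = 0.00921).

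Sfn encodes 14-3-3 sigma, which holds cells in G2 and is best known from epithelia. It had 47, 43 and 39 counts with circSlc17a5, against 75, 155 and 100 in control. The control libraries were uneven, with replicate 2 the highest, and the groups did not overlap. Sfn was 2.65-fold lower (log2 fold change -1.41, SE 0.263, edgeR adjusted p = 0.00874), called in all 16 alternatives with log2 fold changes between -1.63 and -0.94. The keratin gene Krt18 of the epithelial marker list was 1.37-fold lower (edgeR adjusted p = 0.0298), Krt8 and Krt19 did not pass, and Epcam was 2.32-fold higher (edgeR adjusted p = 0.0155). Sfn lies inside the listed spans of 5 other genes, but the same 5 spans also cover Trp53inp1, Plk3 and Casp9, far apart on chromosome 4. Spans of that size do not show whether reads of Sfn were shared. Plk3 and Sesn1, a stress kinase gene and the gene of a sensor that inhibits growth, did not pass, at 0.16 for Plk3 (adjusted p = 0.1503) and -0.05 for Sesn1 (adjusted p = 0.724) on the log2 scale. Plk3 was called higher on FPKM values (log2 fold change 0.24 on the log2(FPKM + 1) scale, limma adjusted p = 0.0385) and with the GC and length correction (0.25, edgeR adjusted p = 0.0182).

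Of the DNA repair targets, 1 of 4 rose (25% called, against 22% of all tested genes). Polk encodes DNA polymerase kappa, which copies past damaged bases. It had 1071, 983 and 931 counts with circSlc17a5, against 825, 657 and 721 in control, without overlap. Polk was 1.31-fold higher (log2 fold change 0.39, SE 0.089, edgeR adjusted p = 0.0180), a call that ended without circSlc17a5 replicate 1 or 2 or control replicate 2 or 3 (highest edgeR adjusted p = 0.0823). Rrm2b, the p53-induced subunit of ribonucleotide reductase, had a log2 fold change of 0.25 (adjusted p = 0.200), with control replicate 1 above 2 of the 3 circSlc17a5 libraries, and was called without that library (0.42, edgeR adjusted p = 0.00998). Xpc and Ddb2, which recognise damage in nucleotide excision repair, had log2 fold changes of 0.05 and 0.04 and overlapping groups.

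None of the other death and autophagy targets passed, with 0 of 7 called by each of edgeR, DESeq2 and limma-voom, against 22% of all tested genes by edgeR. Before adjustment, 0 of the 7 had an edgeR p under 0.05, against 4583 of all 11722 tested genes. The log2 fold changes of the 7 ran from -0.20 for Zmat3, an RNA-binding zinc finger gene, to 0.16 for Trp53inp1, which promotes autophagy and p53 phosphorylation. Ei24 was at -0.17, Phlda3, an inhibitor of AKT signalling, at -0.09, the nuclease gene Aen at 0.09, and the lysosomal autophagy genes Dram1 and Dram2 at 0.10 and 0.13. Without control replicate 1, Zmat3 (-0.31) and Ei24 (-0.22) were called lower and Dram2 (0.21) higher (edgeR adjusted p = 0.0102, 0.0363 and 0.0385), together with Bbc3 (-0.27) and Bid (-0.33) on the lower side (edgeR adjusted p = 0.0429 and 0.0326). Zmat3 was also called lower with the GC and length correction (-0.43, edgeR adjusted p = 0.0288). Perp, a p53 target of cell junctions, had 3, 2 and 1 counts with circSlc17a5 and 2, 1 and 1 in control, too few to test.

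**Figure D5:**
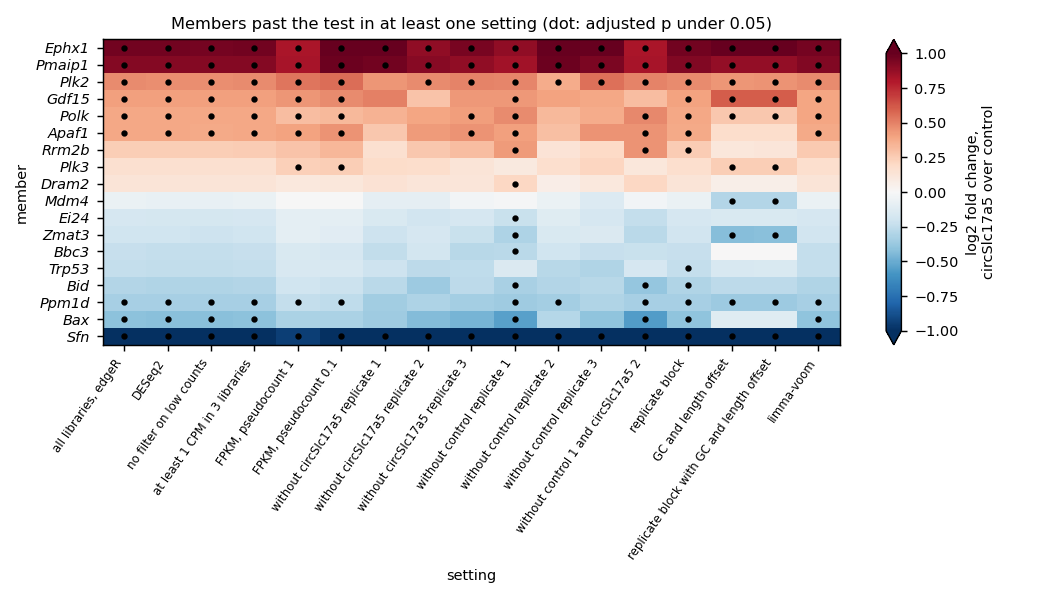
Log2 fold change, circSlc17a5 over control, of each member that passed the test in at least one setting (rows) under each setting (columns), with a dot where the adjusted p was under 0.05. Ephx1, Pmaip1 and Sfn carry a dot in every column, Bax loses its colour with the GC and length correction, and the column without control replicate 1 holds the most dots, at 15.

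The transcript table split the members into 106 transcripts, of which 74 were tested. By edgeR's test 0 of the 74 passed, 14 had an unadjusted p under 0.05, and 0.00708% of all 28266 tested transcripts were called. The only transcript of Pmaip1 had the same counts as its gene, with an edgeR adjusted p of 0.171 here and 0.00136 as a gene. A transcript that did not pass is therefore not shown to be unchanged. Estimates of minor transcripts could swing between libraries of a group, as for NM_009754.3 of Bcl2l11, with 0, 13 and 25 counts with circSlc17a5 and 0, 297 and 0 in control. The main transcript held 85.7% of the TPM of Trp53 and 95.4% of that of Bax, and its log2 fold changes of -0.27 and -0.42 lay close to those of the genes. Aen divided almost evenly between NM_001162939.2 and NM_026531.5, whose log2 fold changes were -0.51 and 0.69 with no overlap in counts (edgeR adjusted p = 0.315 and 0.246).

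Further genes of the pathway were read in the same fit. The best known p53 target, Cdkn1a, which encodes the cell cycle inhibitor p21, was abundant, with 8184, 8657 and 8394 counts in circSlc17a5 libraries and 8988, 8432 and 7930 in control libraries. Its log2 fold change was -0.06 with a 95% interval from -0.23 to 0.11. Of 33 tested further p53 targets, 8 rose and 1 fell (27.3% called, against 22% of all genes). Trp53i11, first described as p53-inducible, had 32, 32 and 31 counts with circSlc17a5, against 5, 4 and 5 in control, and was 6.41-fold higher, the largest fold change among these targets (edgeR adjusted p = 6.37e-04). Sulf2, a sulfatase of heparan sulfate, was 1.98-fold higher (edgeR adjusted p = 0.00443), and Eda2r, a TNF receptor family gene, 1.57-fold higher (edgeR adjusted p = 0.00409). Sulf2 and Eda2r were called in all 16 alternatives, and Trp53i11 in the 14 that gave it a value, since it was under the minimum on FPKM. Cpt1c, a neuronal carnitine palmitoyltransferase gene, was 1.37-fold lower (edgeR adjusted p = 0.0160), a call that ended without circSlc17a5 replicate 1 or 2 or control replicate 3 (highest edgeR adjusted p = 0.0751).

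Of 18 tested p53 regulators, 2 rose and 3 fell, a share of 27.8% that is near the 22% called among all tested genes. The acetyltransferase gene Ep300 was 1.38-fold higher (edgeR adjusted p = 0.0210) and its paralogue Crebbp 1.28-fold lower (edgeR adjusted p = 0.0376). The kinase gene Hipk2, whose product phosphorylates p53, was 1.36-fold higher (edgeR adjusted p = 0.0469), and the damage-sensing kinase gene Atr 1.35-fold lower (edgeR adjusted p = 0.0163). Rpl5, a ribosomal protein gene whose product can bind MDM2, was 1.28-fold lower (edgeR adjusted p = 0.0394). Leaving out circSlc17a5 replicate 1 ended each of these 5 calls (edgeR adjusted p between 0.0640 for Atr and 0.177 for Hipk2). Calls also ended without circSlc17a5 replicate 2 for Hipk2, Crebbp and Rpl5, without circSlc17a5 replicate 3 for Atr, Crebbp and Rpl5, and without control replicate 2 or 3 for Ep300, Hipk2, Crebbp and Rpl5. The GC and length correction ended the calls of Ep300 (log2 fold change 0.23, against 0.46 without it, edgeR adjusted p = 0.0525) and Hipk2 (0.24, against 0.44, edgeR adjusted p = 0.137), and moved Crebbp to -0.60, against -0.36, and Atr to -0.68, against -0.43. On log2(FPKM + 1), Crebbp was at -0.14 (limma adjusted p = 0.324), Rpl5 at -0.20 (0.116) and Hipk2 at 0.36 (0.0713), and limma-voom did not call Hipk2 (adjusted p = 0.0546).

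Of 8 tested further genes of the BCL2 family, 0 changed by edgeR, by DESeq2 or by limma-voom, against 22% of all tested genes by edgeR. Before adjustment, 2 of the 8 had an edgeR p under 0.05, against 4583 of all 11722 tested genes. The most abundant of the 8, Bnip3 and Bnip3l, which mark mitochondria for removal, did not pass. On the log2 scale Bnip3 was at -0.15 (edgeR adjusted p = 0.149) and Bnip3l at -0.16 (edgeR adjusted p = 0.104). Bnip3l was called lower with the GC and length correction (-0.23, edgeR adjusted p = 0.0258). Of 28 tested caspases, inhibitors of apoptosis (IAPs) and death receptor adaptors, 2 rose and 3 fell (17.9% called, against 22% of all tested genes). Xiap, the direct caspase inhibitor, was 1.46-fold higher (edgeR adjusted p = 0.0236) and Birc5, which encodes survivin and also acts in mitosis, 1.21-fold higher (edgeR adjusted p = 0.0444). Diablo, whose product SMAC counters the IAPs, was 1.18-fold lower (edgeR adjusted p = 0.0437), the adaptor gene Tradd 1.31-fold lower (edgeR adjusted p = 0.0208) and Naip2 1.82-fold lower (edgeR adjusted p = 0.0145). All 5 calls ended without circSlc17a5 replicate 1, circSlc17a5 replicate 2 or control replicate 3, those of Birc5, Naip2 and Diablo also without circSlc17a5 replicate 3, and those of Xiap, Birc5, Tradd and Diablo also without control replicate 2 (highest edgeR adjusted p = 0.1705, for Birc5). DESeq2 did not call Birc5 and Diablo (adjusted p = 0.0533 and 0.0557), nor did edgeR with no filter on low counts (adjusted p = 0.0519 and 0.0540). The GC and length correction ended the Birc5 call (log2 fold change 0.22, edgeR adjusted p = 0.0766) and moved Xiap to 0.32, against 0.54, and Tradd to -0.25, against -0.39, both still called. On log2(FPKM + 1), Diablo was at -0.15, against -0.24 (limma adjusted p = 0.115), and Naip2 at -0.38, against -0.86, still called. Without control replicate 1 and circSlc17a5 replicate 2 together, Diablo was not called (edgeR adjusted p = 0.0650).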

How the data were processed

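Per the labels' protocols, TRIzol was used to extract RNA and a SMARTER kit for mRNA to build the libraries. For each gene and each transcript the authors deposited FPKM, TPM and expected counts. The submitters' processing notes name RSEM 1.2.12, HISAT2 2.0.4 and Bowtie2 2.2.5. What each did, the build and any use of strand in counting: not given in the sources used here. Per the file headers, a further deposited table holds the authors' DESeq2 log2 fold changes with their p-values and q-values. Of 15297 genes matched to RefSeq GRCm38.p6, 74.3% had the same span within 1 base, and promoters come from that build.

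Of 15399 genes, 15398 were used and 1 was not analysed here. Rounded expected counts passed filterByExpr and TMM scaling, and the groups were compared by the two-sided quasi-likelihood F test of edgeR 4.0.16 in R 4.3.3 with Benjamini-Hochberg adjustment at 0.05. Adjusted p-values with no tool named are edgeR's. SE is the absolute log2 fold change over the square root of F, and 95% intervals use the fit's degrees of freedom. The code was tested on simulated data. The 16 alternatives are DESeq2 1.42.0, limma-voom (limma 3.58.1), 2 filters, limma-trend on log2(FPKM + 1) and log2(FPKM + 0.1) with a mean FPKM of at least 0.5, each library left out, 2 libraries left out together, a replicate block, an offset for GC content and length (splines, 5 degrees of freedom each, on the longest coding GENCODE transcript, known for 96.6% of genes) and both together. The members, lists and libraries left out together were chosen with earlier results of these data known. All members are named. Library values are given for members past the test and for 13 fixed core genes. From each further list the 3 risen and 3 fallen genes of smallest adjusted p are named, or the 2 of highest TPM where none was called, and Cdkn1a in any case. Of the members, 11 overlap the listed span of another gene, so that reads could be shared. For Casp9, Sfn and Trp53inp1 these are only spans that stretch over much of chromosome 4, which do not show sharing.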

Additional observations from a re-analysis of the deposited data

How the results depend on the processing

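Pmaip1, Ephx1 and Sfn were called under all 16 alternatives, Plk2 under 15, Ppm1d and Polk under 12, Apaf1 and Gdf15 under 10 and Bax under 7, and no called member changed sign. Leaving out 1 library gave between 462 and 4699 called genes (346 to 2424 risen, 116 to 2275 fallen) and between 3 and 15 called members (2 to 8 risen, 1 to 7 fallen), fewest without circSlc17a5 replicate 1 and most without control replicate 1. The range was 0 to 8 for the p53 regulators, 5 to 18 for further p53 targets, 0 to 3 for the further BCL2 family and 0 to 10 for caspases, IAPs and adaptors. Without control replicate 1 and circSlc17a5 replicate 2, 1 gene of the further BCL2 family and 8 caspases, IAPs and adaptors were called. In that fit 31.3% of all tested genes were called.

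On FPKM values 673 genes fell with a pseudocount of 1 (1433 rose) and 664 with 0.1, against 1198 fallen and 1386 risen from counts. Members split into 7 risen and 2 fallen on FPKM and into 6 and 4 with the GC and length correction, against 6 and 3 from counts. On FPKM 2 p53 regulators were called with either pseudocount, against 18.7% of all tested genes with 1 and 18.3% with 0.1. With the offset 1151 genes rose and 1506 fell, and 3 genes of the further BCL2 family were called, also with the block added. The share of all tested genes called was 23.1% with the offset and 32% with the block added. The cause of these shifts was not tested.

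The replicate numbers were not shown to pair the libraries, since deviations of same-numbered libraries correlated at 0.219, 0.0678 and 0.0649, and circSlc17a5 replicate 3 correlated best with control replicate 2 (0.31). With the replicate block 4429 genes were called (2324 risen, 2105 fallen), 37.8% of all tested genes. Of the members 7 rose and 5 fell, Trp53 being among the fallen (edgeR adjusted p = 0.0258). Of 33 further p53 targets 14 were called, and of 28 caspases, IAPs and adaptors 11. With block and offset 2080 genes fell. The members' transcripts, run without 1 library and, added after seeing the data, with no filter or with the block, gave 0 calls each time. Since 0.00708% of all tested transcripts were called with all libraries, these 0 calls do not show that the transcripts were unchanged. With 3 libraries per group, differences smaller than the intervals given could not be resolved, and Bcl2, Fas and Perp are limited by their low counts.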

Other observations

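Other p53 targets rose beside those named by the rule, and 4 of them are named here after their values were seen. Of the 33 tested further targets that they come from, 17 were higher and 16 lower. The number called as risen was 8, and it was 5 without circSlc17a5 replicate 1 or without control replicate 3. How far each of the 4 calls depends on the setting is not given here. Thbs1, which encodes the matrix protein thrombospondin-1, was 1.56-fold higher (edgeR adjusted p = 0.0112), with control replicate 1 the highest control library. Gadd45a, a stress sensor gene, was 1.25-fold higher (edgeR adjusted p = 0.0381), Gtse1, whose product restrains p53 in G2, 1.46-fold higher (edgeR adjusted p = 0.00946), and Igfbp3, which binds insulin-like growth factors, 1.62-fold higher (edgeR adjusted p = 0.0311). Igfbp3 was low, at 57, 45 and 56 counts with circSlc17a5 and 33, 31 and 30 in control.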
